A study of Mus musculus with 8 samples.

Results

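Hspa1a and Hspa1b, the genes of the stress-inducible Hsp70 chaperones, were followed through the cells of mouse hepatoma tumours. They were chosen by name, for a pattern already seen in these data, and are 2 of the 2000 genes in the deposited table. Their levels are therefore a description, and no test was run on them. Hsp70 proteins bind unfolded stretches of other proteins and use ATP to help them refold. Most cells keep Hspa1a and Hspa1b nearly silent until heat shock factor 1, a transcription factor released when unfolded proteins accumulate, binds heat shock elements in their promoters and raises their transcription within minutes. Co-chaperones act with them, among them Dnajb1, which delivers clients, and Hsph1, which exchanges nucleotide.

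Hepa1-6, an established hepatoma line from mouse, formed the tumours, whose single cells were profiled by droplet-based 3′ RNA sequencing. The labels name 4 groups: unedited (WT) or Soat1-edited Hepa1-6 tumours, each in animals given intraperitoneal PBS or a PD-1 antibody. Titles call the edited tumours knockouts, while the genotype field calls them knockdowns, and neither the strain, sex and age of the hosts nor the number of animals and of edited clones is given. The table pools 53528 cells in 6 sets, numbered by the end of the cell name, and no label ties a set to a group. No genotype or treatment could be compared, and the sets are given side by side as unassigned samples. All tumours were digested enzymatically for the same time before capture, so transcripts made in the tumour and transcripts made during handling cannot be told apart.

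Set 1 held 9370 cells with 1001 to 261833 unique molecular identifiers (UMIs, 1 per captured transcript) and could be turned back into whole UMI counts. Levels are UMIs per 1000000 UMIs of the cells (CPM), and because each transcript is counted once at its 3′ end they can be set side by side without a length correction. Intervals are 95% and cover counting error only, not the spread between cells or tumours. Sets 2 to 6 had been altered by an unrecorded step, with values below 0 in every cell, so they are given as mean deposited values on a natural log scale, and their likeness to set 1 is not a repeat measurement. Marker genes placed 37317 cells (69.7%) in 8 classes: hepatoma, CD8 T, CD4 T, regulatory T, NK, macrophage, monocyte and neutrophil. In set 1 the summed level of each class's own marker list was highest in that class. The gates use genes of these lists, so this is no independent check of the classes. The neutrophils also carried hepatoma markers at a summed 10481 CPM, against 18876 CPM in hepatoma cells and 1988 to 4359 CPM in the other 6 classes. Their median depth was 1258 UMIs, the lowest of the 8 classes. Dendritic cells and fibroblasts were gated as additional classes. The cell names are running numbers without barcodes, so barcodes shared between sets could not be counted.

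The pair lies head to tail on chromosome 17 of the mouse genome (GRCm38). Hspa1b (ENSMUSG00000090877.3) spans 34956436 to 34959238 and Hspa1a (ENSMUSG00000091971.3) spans 34969190 to 34972156, both on the minus strand, each with a single exon, and 9951 bases apart. Hspa1l, a testis-enriched relative, lies beyond the start site of Hspa1a on the plus strand, 546 bases away, and was not analysed here. The promoters are shown because these copies differ in level between cell types although the bases before their start sites are almost the same. The 250 bases upstream of each RefSeq start site (GRCm38.p6, chr17:34972157-34972406 for Hspa1a and chr17:34959239-34959488 for Hspa1b, minus strand) read, from 5′ to 3′, with a match to the heat shock element core GAANNTTC in capitals:
Hspa1a: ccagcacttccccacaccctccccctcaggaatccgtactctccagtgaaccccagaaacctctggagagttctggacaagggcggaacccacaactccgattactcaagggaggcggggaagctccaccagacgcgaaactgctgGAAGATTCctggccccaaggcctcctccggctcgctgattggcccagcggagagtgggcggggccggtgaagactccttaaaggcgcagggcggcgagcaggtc
Hspa1b: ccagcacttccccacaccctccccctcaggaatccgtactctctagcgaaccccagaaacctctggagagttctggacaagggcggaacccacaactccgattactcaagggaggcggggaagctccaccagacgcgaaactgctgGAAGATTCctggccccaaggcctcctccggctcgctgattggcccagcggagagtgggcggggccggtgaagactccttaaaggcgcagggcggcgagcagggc
Of these 250 bases 247 are identical. Going from Hspa1a to Hspa1b and counting from 1 at the 5′ end, the differences are C44T, T47C and T249G. GAANNTTC, which reads the same on both strands, occurs once in each, at position 147. It occurs in 6.69% of the 32851 RefSeq promoter windows of the same length. CCAAT, searched on both strands, occurs once in each (33.8% of windows), and GGGCGG occurs 3 times in each (at least once in 32.7% of windows). None of the 3 differing positions lies in a match to these motifs. A match is a description of the letters and not a bound site.

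The transcripts can be told apart where a 3′ library reads them. The coding sequences are 99.6% identical over their aligned bases in GENCODE M21, and 68.3% of the 100-base windows of the Hspa1a coding sequence also occur in Hspa1b. The 3′ untranslated regions are 61.1% identical, and 0 of 401 such windows in the last 500 bases of either transcript occur in the other. Reads of 100 bases from these ends belong to 1 copy, whereas reads primed inside the coding sequence may not. How the submitters' counting treated shared reads is not given in the sources used here.

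Hspa1a and Hspa1b were high in T cells and in myeloid cells other than neutrophils, and close to absent from hepatoma cells. In set 1 the Hspa1a level was 4.75 CPM (4.38 to 5.14) in 5032 hepatoma cells and 509 CPM (492 to 526) in 1036 CD8 T cells, the killer lymphocytes of the tumour. Hspa1b stood at 4.12 CPM (3.78 to 4.48) in hepatoma cells and 946 CPM (924 to 970) in CD8 T cells. The ratio of CD8 T to hepatoma cells was 107 (98.4 to 117) for Hspa1a and 230 (210 to 251) for Hspa1b. The hepatoma levels lay within the range described below for lymphocyte genes in hepatoma cells. What share of these UMIs is free RNA was not tested, so both are ratios of measured levels only. Of all 2000 genes, 20.9% were at least 2-fold higher and 33.0% at least 2-fold lower in CD8 T than in hepatoma cells.

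**Figure D1:**
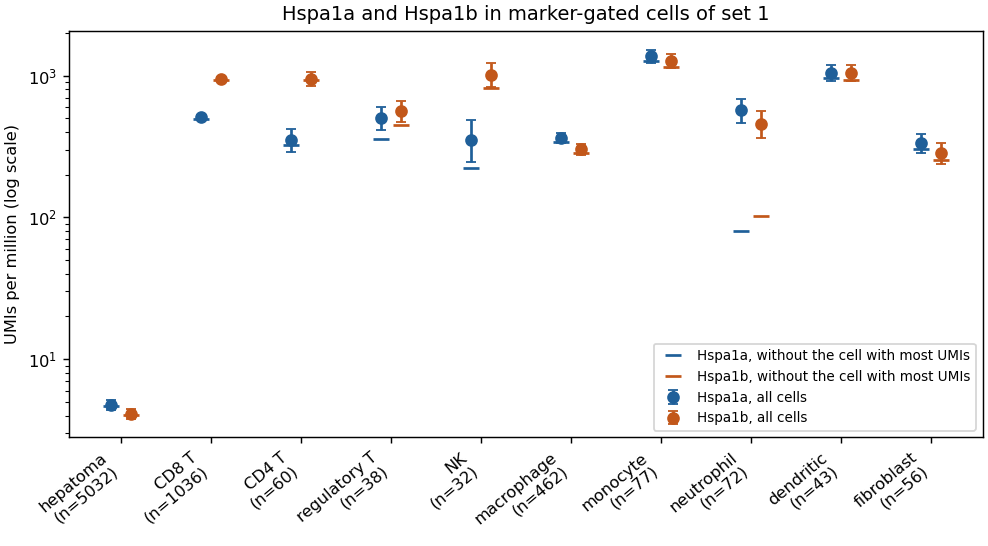
Level of Hspa1a and Hspa1b in each marker-gated class of set 1, in CPM on a log axis, with the number of cells below each name. Points are all cells with 95% Poisson intervals and dashes leave out the cell with most UMIs of that gene. Hepatoma cells sit near 4 to 5 CPM and every other class at or above 284 CPM, but the neutrophil points drop to 80.4 and 102 CPM without 1 cell.

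Monocytes, the blood-derived precursors of tumour macrophages, had the highest summed level of both genes in set 1. Hspa1a reached 1370 CPM (1231 to 1521) in 77 monocytes, followed by 1040 CPM (910 to 1183) in 43 dendritic cells. Next came 569 CPM in neutrophils, 509 CPM in CD8 T cells and 504 CPM (416 to 603) in 38 regulatory T cells, the Foxp3-positive suppressors. Macrophages, with 361 CPM (334 to 391; 462 cells), CD4 T cells and NK cells, with 350 CPM each, and fibroblasts, with 334 CPM (284 to 390; 56 cells), followed. The intervals of monocytes, dendritic cells and CD8 T cells did not overlap each other for Hspa1a. Macrophages and fibroblasts did not differ beyond counting error (1.08, 0.909 to 1.29). Regulatory T over CD8 T cells gave 0.989 (0.816 to 1.19), with 35 of the 117 regulatory T UMIs in 1 cell and 358 CPM without it. On the deposited scale CD8 T cells were above regulatory T cells in 6 of 6 sets, by 0.18 to 0.45.

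The order was different for Hspa1b. Monocytes, at 1269 CPM (1134 to 1414), and dendritic cells, at 1049 CPM (919 to 1192), were followed closely by 1011 CPM (824 to 1229) in 32 NK cells. CD8 T cells and CD4 T helper cells then stood at 946 and 944 CPM, a ratio of 1 (0.896 to 1.13). Regulatory T cells were lower, at 559 CPM (467 to 664), 0.591 (0.493 to 0.703) of the CD8 T level. Neutrophils (452 CPM), macrophages (301 CPM, 276 to 328) and fibroblasts (284 CPM, 239 to 336) made up the lower end above hepatoma cells. Monocytes overlapped dendritic and NK cells in their intervals, and dendritic, NK, CD8 T and CD4 T cells all overlapped each other. As means of deposited values the order changed: in set 1 monocytes (1.58) were below NK (1.87), dendritic (1.69) and CD8 T cells (1.68), and they were above CD8 T cells in 2 of 6 sets.

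Neutrophils carried little of either transcript apart from 1 cell. That cell held 92 of the 107 Hspa1a UMIs and 66 of the 85 Hspa1b UMIs of 72 neutrophils. Without it the levels were 80.4 and 102 CPM, and 5 of 72 cells (6.94%, 2.29 to 15.5) had any Hspa1a UMI. The NK level of Hspa1a was 223 CPM without its highest cell. NK and neutrophil levels also turned on the gate. As first written, it took in deep cells with many hepatoma markers and no Ptprc, the leukocyte antigen CD45. For NK cells it also barred the T-cell receptor genes Trbc1 and Trbc2, which the present gate allows. It gave 8.91 CPM of Hspa1a and 232 CPM of Hspa1b in 19 NK-gated cells, which carried hepatoma markers at 10537 CPM. The neutrophil levels under that first gate were 174 and 136 CPM. Of its 19 NK-gated cells, 10 are among the 32 of the present gate. These 32 carried T-cell markers at a summed 981 CPM, against 5213 CPM in CD8 T cells. Which change moved the NK levels was not tested.

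In hepatoma cells the counts lay within the range of lymphocyte genes. Droplets hold transcripts released by other cells, so genes of lymphocytes also give UMIs in tumour cells. For 25 lymphocyte genes at 200 CPM or more in CD8 T cells and at least 20 times lower in myeloid cells and fibroblasts, the hepatoma level was 0.292% to 2.66% of the CD8 T level, with a median of 0.623%. Hspa1a stood at 0.933% and Hspa1b at 0.435%. Unlike these 25 genes, both were also high in monocytes and macrophages, so the comparison is not a like one. Gzmb, a cytotoxic granule protease of lymphocytes, gave a UMI in 10.5% of hepatoma cells at their median depth of 21192 UMIs. Hspa1a did so in 11% (10.1 to 11.9) and Hspa1b in 9.42% (8.63 to 10.3). The share of hepatoma cells at 0 for Hspa1a was 89%, against 88.7% if every UMI had the same chance. Only 1 of 5032 hepatoma cells had 5 or more Hspa1a UMIs and 4 had 5 or more of Hspa1b. From 5000 UMIs upward the Hspa1a level was 4.72, 4.65 and 4.71 CPM in 3 bands. At 2000 to 5000 UMIs it was 12.3 CPM (5.91 to 22.7), from 10 UMIs, and cells below 5000 over cells from 10000 UMIs gave 2.25 (1.07 to 4.17). Gzmb was at 3.7 CPM (0.763 to 10.8) at 2000 to 5000 UMIs. Whether these UMIs are free RNA or low expression was not tested, and the summed hepatoma values are not read as expression.

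The contrast held for the same classes in each set, on the deposited natural log scale. Mean Hspa1a in CD8 T cells was 1.04, 1.04, 1.05, 1.02, 1.05 and 1.04 in sets 1 to 6, and in hepatoma cells 0.04 to 0.05. Mean Hspa1b in CD8 T cells was 1.68, 1.76, 1.61, 1.67, 1.58 and 1.61, against 0.03 to 0.04 in hepatoma cells. CD8 T values were above hepatoma values in 6 of 6 sets for both genes, with no overlap. Monocyte Hspa1a was 1.80, 2.01, 1.77, 1.78, 2.11 and 2.20, and macrophage Hspa1a 0.65 to 0.70. Monocytes exceeded macrophages in 6 of 6 sets, by 1.08 to 1.54 for Hspa1a and 0.77 to 1.21 for Hspa1b. Between CD8 T and CD4 T cells the sign varied, with CD8 T cells higher in 2 of 6 sets for each gene. NK cells ranged from 0.53 to 1.12 for Hspa1a, with 20 to 116 cells per set. Fibroblasts ranged from 0.45 in set 6 to 1.07 in set 2.

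**Figure D2:**
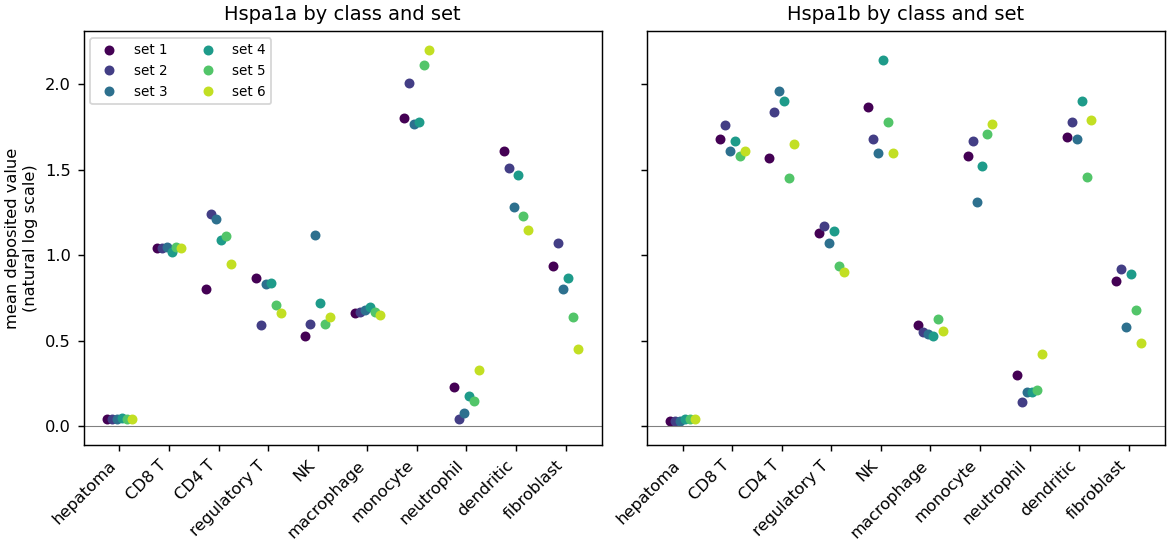
Mean deposited value (natural log scale) of Hspa1a (left) and Hspa1b (right) in each class, 1 point per set. Hepatoma points lie at 0.03 to 0.05 in every set, CD8 T points are tightly grouped at 1.02 to 1.05 for Hspa1a, and monocyte points are above macrophage points in all 6 sets for both genes.

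The balance between the copies differed between classes, with more Hspa1b in CD8 T, CD4 T and NK cells and slightly more Hspa1a in macrophages. CD8 T cells held 3512 UMIs of Hspa1a and 6529 of Hspa1b, a ratio of Hspa1b to Hspa1a of 1.86 (1.78 to 1.94). The ratio was 2.69 (2.18 to 3.36) in CD4 T cells and 2.89 (1.95 to 4.37) in NK cells. Regulatory T cells had a lower ratio in set 1, at 1.11 (0.859 to 1.44), from 38 cells. The highest cell for each gene held 35 of their 117 Hspa1a UMIs and 32 of their 130 Hspa1b UMIs. On the deposited scale, given below, they shared the sign of the other lymphocytes. Macrophages, with 638 and 531 UMIs, had a ratio of 0.832 (0.74 to 0.935), and monocytes of 0.926 (0.794 to 1.08). Dendritic cells and fibroblasts were near 1, at 1.01 (0.838 to 1.21) and 0.851 (0.673 to 1.08), and neutrophils, with most UMIs in 1 cell, at 0.794 (0.59 to 1.07). The CD8 T, CD4 T and NK intervals lay wholly above those of macrophages and monocytes.

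On the deposited scale the sign of the difference also varied by class. The mean of Hspa1b minus that of Hspa1a was 0.53 to 0.72 in CD8 T cells, 0.34 to 0.80 in CD4 T cells, 0.23 to 0.58 in regulatory T cells and 0.47 to 1.41 in NK cells. Each of these was above 0 in 6 of 6 sets. The same difference was -0.17 to -0.04 in macrophages and -0.46 to -0.22 in monocytes, below 0 in 6 of 6 sets. Dendritic cells (0.08 to 0.64) and neutrophils (0.01 to 0.12), also myeloid, were above 0 in 6 of 6 sets. With medians over cells in place of means, Hspa1a was above Hspa1b in 2 of 6 sets of macrophages. Most macrophages were not above a value of 0.5 for either gene, so these medians cannot show which copy was higher. In fibroblasts Hspa1b was higher in 3 of 6 sets. Of 1036 CD8 T cells, 450 had both transcripts, 272 Hspa1b alone, 58 Hspa1a alone and 256 neither. Macrophages with 1 copy were evenly divided, 50 with Hspa1a alone and 41 with Hspa1b alone.

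Within CD8 T cells, macrophages and monocytes, more cells were without the transcripts than an even spread per UMI would leave. The top 10% of CD8 T cells held 60.6% of the Hspa1a and 49.3% of the Hspa1b UMIs. Such shares rank cells by UMIs, without regard to depth, and have no even-spread value beside them. In hepatoma cells, where 89% were at 0 against 88.7% for an even spread, the Hspa1a share was 92%. At 0 UMIs of Hspa1a were 51% of CD8 T cells, where an even spread per UMI would leave 15.1%. For Hspa1b these shares were 30.3% and 5.81%. In macrophages 67.7% of cells had no Hspa1a UMI, against 38.1% for an even spread, and the top 10% of cells held 70.8% of the UMIs. In monocytes 33.8% of cells had no Hspa1a UMI, against 5.14% for an even spread, and the top 10% held 47.3%. For Hspa1b 40.3% of monocytes were at 0, against 6.08%, and the top 10% held 55.4%. After thinning every cell to 1000 UMIs, Hspa1b was seen in 44.7% of CD8 T cells (69.7% unthinned), 45.5% of monocytes (59.7%), 14.3% of macrophages (30.3%) and 0.338% of hepatoma cells (9.42%).

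Cells that were high in one copy were high in the other. Across the cells of a class, Pearson's r between Hspa1a and Hspa1b on the log scale was 0.56 in CD8 T cells, 0.66 in macrophages and 0.71 in monocytes, and averaged 0.57 over the 8 classes. In hepatoma cells it was 0.10. Among the 80 other genes with at least 20 UMIs in every class, the next most alike was Hsph1, an Hsp110 nucleotide exchange factor, at a mean of 0.19 with each gene. Dnajb1, an Hsp40 co-chaperone induced by the same factor, had 0.14 with Hspa1a and 0.15 with Hspa1b. Tmsb4x (0.12 and 0.17, the latter above Dnajb1), an actin-binding peptide gene, Fosb (0.10 with Hspa1a), an immediate early transcription factor, and Cd52 (0.11 with Hspa1b), a leukocyte surface antigen, completed the first 5. The median of the compared genes was 0.01 and -0.01. These r values are across cells of 1 set that share its depth range. Values this low in sparse counts are no finding beyond the pair itself.

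Over the 48 means of 8 classes in 6 sets, other genes were more alike to each member than its partner was. For Hspa1a these were Crip1 (r = 0.90), Fam111a (0.86), Magohb (0.84), Ms4a4c (0.84) and Ms4a6b (0.81). For Hspa1b they were the integrin gene Itga4 (0.93), Tagap (0.88), the phosphatase gene Dusp2 (0.88), the lymphoid transcription factor gene Ikzf1 (0.87) and Ptprc (0.86). The pair itself had an r of 0.74. Dnajb1 and Hsph1 had r values of -0.28 and -0.24 with Hspa1a and of 0.03 and 0.17 with Hspa1b. The points share classes and the unrecorded treatment of the sets. Ptprc and the monocyte marker Ms4a4c are used by the gates, so their class means are set in part by the gating.

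Most other heat shock genes did not share the contrast between CD8 T and hepatoma cells. Of 11 heat shock and chaperone genes in the table, 3 were at least 2-fold higher in CD8 T cells, Hspa1a, Hspa1b and the small heat shock protein gene Hspb1 (7.1 against 0.083 CPM). Another small heat shock protein gene, Cryab (0.87 against 7.5 CPM), and the heme oxygenase Hmox1 (26.5 against 89.8 CPM) were at least 2-fold lower. Of all 2000 genes, 20.9% were higher and 33.0% lower by this measure. As 2 of the 3 higher genes were chosen for this pattern, the count says little about the list. Over the list the log2 ratio had a median of -0.44, against -0.17 for all 2000 genes. Dnajb1 was at 202 CPM in CD8 T and 334 CPM in hepatoma cells. Hsph1 was at 280 and 262 CPM, the mitochondrial co-chaperonin Hspe1 at 529 and 872 CPM, and the Siah-interacting protein gene Cacybp at 200 and 199 CPM. Dnajb9 (36.5 and 65.6 CPM), a co-chaperone of the endoplasmic reticulum, and Serpinh1 (1.74 and 2.71 CPM), a collagen chaperone, were also higher in hepatoma cells, by less than 2-fold.

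**Figure D3:**
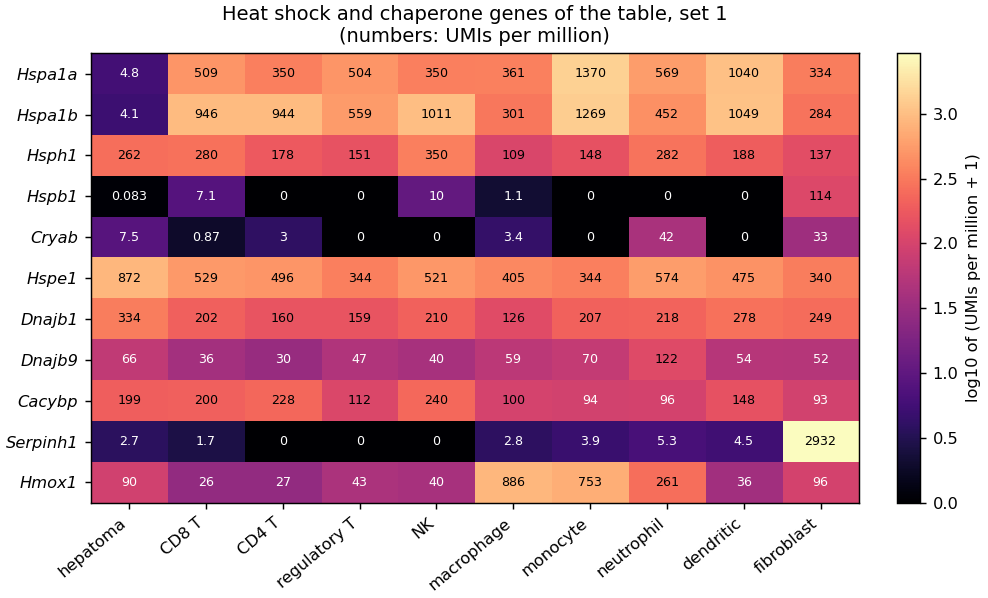
Heat shock and chaperone genes of the table in each class of set 1, coloured by log10 of CPM plus 1, with the CPM printed in each cell. The top 2 rows are lowest in hepatoma cells, and their neutrophil values fall to 80.4 and 102 CPM without 1 cell. Hsph1, Hspe1, Dnajb1 and Cacybp lie between 93.4 and 872 CPM in all columns, and Serpinh1 stands out in fibroblasts.

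Immediate early genes, which are transcribed within minutes of a signal, were split between these classes. Of 17 in the table, 7 were at least 2-fold higher in CD8 T cells and 8 at least 2-fold lower, where 20.9% and 33.0% of all genes were. The 7 higher were Egr2, Egr3, Dusp2, Nr4a2, Nr4a3, Rgs1 and Rgs2. Those with most UMIs in set 1 were Ier3 (163 CPM in CD8 T and 939 CPM in hepatoma cells), Fosb (386 and 765 CPM), Egr1 (188 and 651 CPM) and Socs3 (101 and 463 CPM). This ranking summed all cells and so favoured genes of hepatoma cells, which held 85924 Egr1 UMIs against 1294 in CD8 T cells. Of 8 genes of endoplasmic reticulum stress and the integrated stress response, 0 were higher and 3 lower by that measure, beside the same 20.9% and 33.0% of all genes. Among them Ddit4 was at 268 and 400 CPM, Creld2 at 90.5 and 119 CPM, Ddit3 at 48.6 and 95.7 CPM and Atf5 at 14.1 and 60.2 CPM.

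Monocytes and macrophages differed by 3.79-fold (3.32 to 4.32) in Hspa1a and 4.22-fold (3.66 to 4.85) in Hspa1b. The classes had like depth, with median totals of 2794 and 2549 UMIs. Hspa1a and Hspa1b were the only 2 of the 11 list genes at least 2-fold higher in monocytes, where 13.9% of all genes were. By the same measure 31.4% of all genes were lower, among them Hspb1 and Cryab. Both had 0 UMIs in monocytes, with an interval reaching 14.4 CPM, and 2 and 6 UMIs in macrophages, so no difference was detectable at this depth, and neither was counted with a pseudocount of 10 CPM or at least 20 UMIs. Dnajb1 was at 207 and 126 CPM and Hmox1 at 753 and 886 CPM.

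Within macrophages the level varied with their state. Arg1 encodes an arginase and marks a suppressive macrophage state, and H2-Eb1 encodes an MHC class II chain that presents antigen. Hspa1a stood at 143 CPM in 106 macrophages with Arg1 and 431 CPM in 356 without, a ratio of 0.332 (0.251 to 0.433). Hspa1b stood at 122 and 358 CPM, a ratio of 0.341 (0.251 to 0.455). Median depths were alike, at 2608.5 and 2541.5 UMIs. Below 2000 UMIs the ratios were 0.266 (0.0523 to 0.84), from 3 Hspa1a UMIs with Arg1, and 0.743 (0.276 to 1.73) for Hspa1b. At 2000 to 5000 UMIs they were 0.393 (0.241 to 0.61) and 0.414 (0.239 to 0.674). At 5000 to 10000 UMIs they were 0.243 (0.148 to 0.379) and 0.277 (0.161 to 0.45). Summed monocyte markers were 275 CPM with and 453 CPM without Arg1, dendritic markers 14.1 and 45.5 CPM, and hepatoma markers 5719 and 3926 CPM. Their part in the result was not tested. On the deposited scale macrophages with Arg1 were lower in 6 of 6 sets for both genes. Both were 2-fold lower or more, as were 13.4% of all genes, while 11.1% of all genes were at least 2-fold higher.

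Macrophages with H2-Eb1 carried 430 CPM of Hspa1a, against 101 CPM without it, a ratio of 4.27 (3.07 to 6.13). Hspa1b was at 358 and 84.3 CPM, a ratio of 4.24 (2.95 to 6.31). In this comparison 14.2% of all genes were at least 2-fold higher and 12.5% at least 2-fold lower. Cells with H2-Eb1 were deeper, with a median of 3445 against 1655 UMIs. Among cells of 2000 to 5000 UMIs the ratios were 4.35 (2.8 to 7.09) and 5.04 (2.97 to 9.21). Below 2000 UMIs they were 3.8 (1.76 to 9.1) and 2.37 (1.15 to 5.19). Summed dendritic markers were 42.9 CPM with and 19 CPM without H2-Eb1, against 2595 CPM in dendritic cells, and summed monocyte markers 396 and 462 CPM. Their part in the result was not tested. Macrophages with Il1b, an inflammatory cytokine gene, were likewise higher, by 3.16 (2.62 to 3.82) for Hspa1a and 3.21 (2.61 to 3.97) for Hspa1b, and those with the interferon-induced chemokine Cxcl9 by 1.58 (1.33 to 1.89) and 2.02 (1.65 to 2.48). Cells with Il1b had a median of 3448 against 1896 UMIs. In bands below 2000, of 2000 to 5000 and of 5000 to 10000 UMIs their Hspa1a ratio was 3.39, 2.23 and 3.78. Their Hspa1b ratio was 2 (0.974 to 4.02), 1.96 (1.43 to 2.72) and 4.91 (3.28 to 7.6). Cells with Cxcl9 had a median of 3156 against 2008 UMIs. H2-Eb1, Il1b and Cxcl9 gave higher means in 6 of 6 sets for both genes. Altogether 11 macrophage genes were looked at and H2-Eb1 and Il1b were picked out after their values were seen. Of the 11, 3 gave higher and 2 lower Hspa1a means in 6 of 6 sets, and for Hspa1b 3 and 3.

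**Figure D4:**
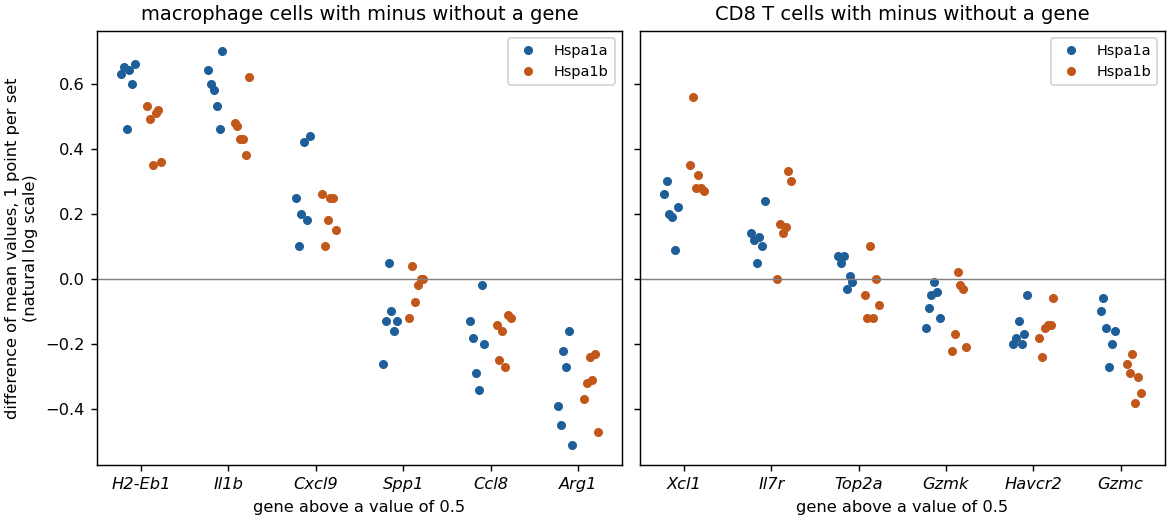
Difference of mean deposited values (natural log scale) between cells with and without a gene, for macrophages (left) and CD8 T cells (right), 1 point per set. In macrophages all points are above 0 for H2-Eb1, Il1b and Cxcl9 and below 0 for Arg1 and Ccl8, and in CD8 T cells all are above 0 for Xcl1 and below 0 for Havcr2 and Gzmc.

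Differences between CD8 T cell states were smaller. Havcr2 encodes TIM-3, an inhibitory receptor of exhausted T cells, Gzmc encodes a granzyme, and Xcl1 a chemokine that attracts dendritic cells. Hspa1a was at 401 CPM in 556 CD8 T cells with Havcr2 and 729 CPM in 480 without, a ratio of 0.55 (0.514 to 0.588). Hspa1b was at 803 and 1238 CPM, a ratio of 0.649 (0.617 to 0.681). Cells with Havcr2 were deeper, with a median of 6432 against 3533.5 UMIs, and within 4 depth bands the Hspa1a ratio was 0.569 to 0.667 and the Hspa1b ratio 0.713 to 0.838. With Gzmc the ratios were 0.753 (0.679 to 0.833) and 0.676 (0.625 to 0.73), and with Xcl1 1.37 (1.28 to 1.47) and 1.22 (1.16 to 1.28). Cells with Xcl1 were also deeper, with a median of 6398 against 4485 UMIs. Their Hspa1a ratio was 0.76 (0.516 to 1.09) below 2000 UMIs, 2.47 (2.14 to 2.84) at 2000 to 5000, 1.39 at 5000 to 10000 and 1.41 at 10000 to 20000, and their Hspa1b ratio 1.28 to 1.7 over these bands. Cells with Gzmc had a median of 8770 against 4762 UMIs, and ratios of 0.544 (0.412 to 0.707) and 0.677 (0.567 to 0.803) at 5000 to 10000 UMIs. Means were lower with Havcr2 and Gzmc in 6 of 6 sets and higher with Xcl1 in 6 of 6 sets, for both genes, among 18 CD8 T genes looked at. Such a sign was common. Of the 18, 4 gave higher and 6 lower Hspa1a means in 6 of 6 sets, and for Hspa1b 5 and 5. Ratios were also low with Gzmf (0.469 and 0.515, 45 cells) and Pdcd1 (0.526 and 0.604), both in deeper cells. With Pdcd1 the Hspa1b mean was higher in 3 of 6 sets.

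Within CD8 T cells both levels were lower in cells with more UMIs. Hspa1a was at 906, 721, 524, 454 and 253 CPM in cells below 2000, 2000 to 5000, 5000 to 10000, 10000 to 20000 and at least 20000 UMIs. Hspa1b was at 1490, 1392, 1018, 782 and 473 CPM in the same bands. The level of each gene was lower in every successive band. Per cell the counts went the other way, from 1.35 to 6.87 Hspa1a UMIs and from 2.23 to 12.9 Hspa1b UMIs. The 513 cells below 5000 UMIs exceeded the 181 cells from 10000 UMIs by 1.95 (1.8 to 2.12) for Hspa1a and 2.09 (1.96 to 2.22) for Hspa1b. By 2-fold or more, 5.35% of all genes were higher in the shallower cells and 10.2% lower.

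**Figure D5:**
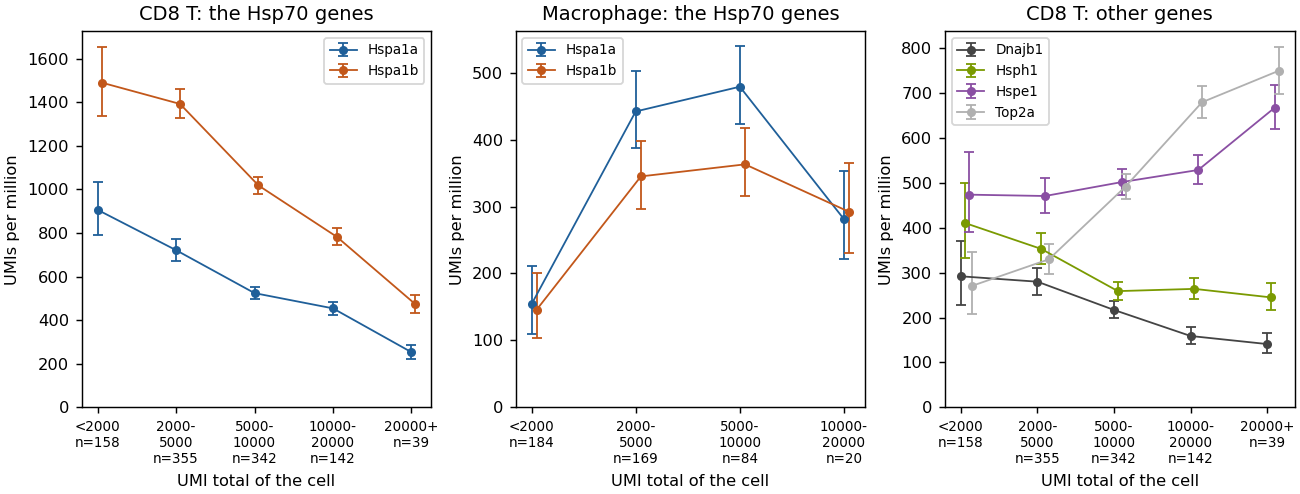
Level in CPM against the UMI total of the cell in set 1, with 95% Poisson intervals and cell numbers below each band, for Hspa1a and Hspa1b in CD8 T cells (left) and macrophages (middle) and for other genes in CD8 T cells (right). In CD8 T cells both genes go down steadily with depth, as Dnajb1 does, while Top2a goes up, and in macrophages both are highest at 5000 to 10000 UMIs. A macrophage band of 5 cells from 20000 UMIs is not drawn.

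Of the other 9 list genes, 0 reached 2-fold in either direction between shallower and deeper CD8 T cells, beside 5.35% of all genes higher and 10.2% lower. Dnajb1 had a ratio of 1.84 (1.61 to 2.11), Dnajb9 of 1.86 (1.33 to 2.58) and Hsph1 of 1.41 (1.26 to 1.57), whereas Hspe1 was at 0.817 (0.746 to 0.893) and Cacybp at 0.837 (0.721 to 0.968). Deeper CD8 T cells carried more of the cell cycle genes Top2a (ratio 0.455, 0.41 to 0.503) and Mki67 (0.443, 0.383 to 0.51) and of Gzmb (0.58, 0.546 to 0.617). Mitochondrially encoded transcripts went from 12216 to 10247 CPM between the lowest and the highest band. Their part in the depth pattern was not tested.

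In macrophages the level did not go one way with depth. Hspa1a was at 154 CPM (109 to 211) below 2000 UMIs, 442 CPM (388 to 502) at 2000 to 5000, 479 CPM (423 to 540) at 5000 to 10000 and 281 CPM (221 to 353) in the 20 cells of 10000 to 20000 UMIs. Hspa1b was at 146, 345, 363 and 292 CPM in these bands. The 5 cells from 20000 UMIs had 122 CPM (72.4 to 193) of Hspa1a and 183 CPM (121 to 267) of Hspa1b. Cells below 5000 over cells from 10000 UMIs gave 1.57 (1.23 to 2) for Hspa1a and 1.11 (0.878 to 1.42) for Hspa1b. The difference from CD8 T cells was not tested.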

How the data were processed

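The single deposited table (2000 genes, 53528 cells) was analysed as 1 pooled sample. The labels' protocols name STAR 2.7.2b for alignment and PISA for counting UMIs. The text names GRCh38 and the submitters' processing notes also list mm10. The symbols are those of mouse genes. The values are deposited on a natural log scale: in set 1, the natural log of 1 plus UMIs per 10000. Later steps are recorded in no label. All 53528 columns map to no sample. In set 1, 100% of nonzero values were whole UMI counts within 0.01. The 2000 genes held 15% of its UMIs.

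Scrublet (scanpy 1.11.5, expected rate 6%) called 91 of 9370 set 1 cells (0.971%), which were left out of set 1 levels. A marker was present above a value of 0.5. Immune classes needed Ptprc or fewer than 6 hepatoma markers. T cells needed 2 T-cell receptor complex genes with Cd8a or Cd8b1, Cd4, or Foxp3. NK cells needed 2 NK receptors and no Cd3 or Trac. Macrophages needed 3 markers including 2 C1q genes, monocytes 2 markers and no C1q, neutrophils 3 markers, and hepatoma cells 6 markers without Ptprc. In all, 1 cell met more than 1 gate and was left out.

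The members and lists were chosen with earlier results of these data known. The markers stayed as listed, but the gate was revised once after Hspa1a and Hspa1b levels had been seen. The dendritic and fibroblast classes, the free-RNA rule and the state genes were also chosen after seeing the data. Named genes were the members, all heat shock list genes, the 5 most alike by each measure and the 4 with most UMIs of each other list. Intervals are exact (Poisson, Clopper-Pearson, conditional binomial), computed with scipy 1.17.1. Log2 ratios of list genes used a pseudocount of 1 CPM. Functions were tested on simulated data. No p-value was computed, since cells are not replicates. Promoters are from RefSeq, with 2 of 2 members matched, and gene models from GENCODE M21.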

Additional observations from a re-analysis of the deposited data

How the results depend on the processing

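The class ratios varied were CD8 T over hepatoma and monocyte over macrophage, and the state ratios those of Arg1, H2-Eb1 and Havcr2. None of these, nor the ratios of copies and of CD8 T depths, crossed 1 under any alternative. Other class and state ratios were not varied in this way. Neutrophil over macrophage for Hspa1a, at 1.57 (1.27 to 1.93), turned on 1 cell. Without the highest cell of each class these levels were 80.4 and 343 CPM. Class levels and counts of sets or genes could not be labelled as reversed. Of 107 alternative values of the main comparisons, 75 stayed within the counting interval or within 1.5 times of a count. CD8 T over hepatoma for Hspa1a and Hspa1b was 92.6 and 183 with a marker value of 1, 125 and 260 as means over cells, and 333 for Hspa1b after thinning. Monocyte over macrophage was 4.4 (Hspa1a, means over cells), 4.83 (Hspa1a, thinned), 4.74 and 6.43 (1 more own marker) and 4.96 (Hspa1b, top 1% of cells left out). Hspa1b over Hspa1a in CD8 T cells was 1.95 without the top 1%. Shallow over deep CD8 T cells gave 2.16 and 2.33 with doublets kept and 2.23 and 2.34 without the top 1%, and for Hspa1b 1.95 as means over cells and 1.85 between the lowest and the highest 25% of depths. Of the state ratios, Arg1 gave 0.233 for Hspa1a with a state gene value of 1 and 0.472 for Hspa1b as means over cells. Havcr2 gave 0.686 and 0.77 with a value of 1, 0.609 and 0.692 without the top 1%, and 0.687 for Hspa1b as means over cells. Macrophage Hspa1a was above Hspa1b in 2 sets by medians, against 6 by means. In set 1, 67.7% of macrophages had no Hspa1a UMI and 69.7% no Hspa1b UMI, so both medians were 0. In no set were more than 36% above a value of 0.5 for either gene. The medians therefore cannot show which copy was higher. List genes lower numbered 1 in CD8 T over hepatoma with a pseudocount of 10 CPM, and 0 in monocyte over macrophage with that pseudocount or at least 20 UMIs. The mean r of the pair was 0.49 after thinning. Of the first 5 alike genes, 1 stayed for each member at 100 UMIs, where 11 genes were compared and neither member had enough UMIs, and 3 for Hspa1b after thinning.

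Of 128 alternative class levels, 16 moved by over 1.5 times, all in NK cells or neutrophils. The cause of these shifts was not tested. The first gate, the single highest cell and the state gene settings were added after seeing the data. No paired analysis was possible because the table's columns carry no replicate number and no result comes from a test. Depth limits neutrophils (15 Hspa1a UMIs outside 1 cell) and NK cells (35 UMIs).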

Other observations

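Hmox1, the heme oxygenase of the same list, followed depth differently from Hspa1a and Hspa1b. In macrophages it was at 1207 CPM in 353 cells below 5000 UMIs and 346 CPM in 25 cells from 10000 UMIs, a ratio of 3.49 (2.92 to 4.19), where Hspa1a had 1.57 (1.23 to 2) and Hspa1b 1.11 (0.878 to 1.42). In hepatoma cells the Hmox1 ratio was 3.41 (3.01 to 3.85), and in CD8 T cells 0.956 (0.631 to 1.42). Dendritic cells had Hspa1a at 1.15 to 1.61 and Hspa1b at 1.46 to 1.90 over the 6 sets on the deposited scale.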
